A study of Homo sapiens with 12 samples.

Results

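The genes described are 47 cytokines, chemokines, their receptors, subunits and inhibitors of the transcription factor NF-kB, and genes that NF-kB switches on. They were taken by name from the 23705 genes of the count table after its Entrez numbers had been matched to symbols. Of the 47, 33 passed the filter on low counts and were tested for differences between conditions. The question was whether an agonist of the nuclear receptor PPARγ lowers inflammatory gene expression in melanoma cells.

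The cells were A375, an established line from a metastatic skin melanoma, used at passages 30 to 32 and grown in DMEM with 10% serum. Cultures received vehicle (DMSO), 5 μM RGZ (rosiglitazone, a PPARγ agonist), 2 μM T0070907 (a PPARγ antagonist) or both compounds together, each for 24 h. Each of the 4 conditions had 3 RNA-seq libraries from 3 independent experiments, with the technical replicates of an experiment combined at the RNA stage. A single line was studied at 1 dose and 1 time, and no inflammatory stimulus is listed, so the values describe unstimulated cells. Total counts were 8687191, 8319455 and 8411073 under vehicle, 9874966, 9001174 and 10096418 under RGZ, 8524144, 10822352 and 11375227 under T0070907 and 8426908, 9327546 and 9471903 under both compounds (the combination). Values given in threes follow the order of experiments 1, 2 and 3.

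NF-kB is held in the cytoplasm by inhibitor proteins until a signal, such as interleukin 1 or TNF at the cell surface, leads to their breakdown. The freed dimers enter the nucleus and switch on chemokines, cytokines and their own inhibitors, which makes the response self-limiting. Ligand-bound PPARγ is known to restrain this response in macrophages, and many melanomas release neutrophil-attracting chemokines and interleukin 1 on their own.

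Marker genes were read first. Of 6 melanocyte-lineage genes, the summed level was 222.5 to 465.5 CPM over the 12 libraries (CPM, counts scaled to the library's total after TMM adjustment), and most of it came from *SOX10* (178 to 429 CPM) and *MITF* (24.4 to 59.6 CPM). The pigment genes were near or at the floor: *TYR* had 0 counts in all 12 libraries, *PMEL* was at 0.259 to 1.53 CPM, *MLANA* at 0 to 0.681 CPM and *DCT* at 0 to 0.114 CPM. Of the leukocyte genes, *LYZ* was at 3.85 to 16.9 CPM and *PTPRC* at 0 to 0.210 CPM. The 3 endothelial markers summed to 0.706 to 2.499 CPM. The 3 keratinocyte markers summed to 6.51 to 37.3 CPM, mostly *KRT14* (5.37 to 37.0 CPM), with *KRT1* at 0, and the 4 fibroblast markers summed to 9.95 to 54.3 CPM, mostly *COL1A1* (2.74 to 29.3 CPM) and *PDGFRB* (6.496 to 24.0 CPM). Some of these markers moved with RGZ: *KRT14* went from 18.2, 11.7 and 32.5 to 10.5, 5.37 and 16.3 CPM, and was at 27.1, 11.9 and 30.3 CPM under both compounds. *KRT14*, *COL1A1* and *PDGFRB* were lower with RGZ in 3 of 3 experiments (adjusted p with the block 0.000182, 0.000672 and 0.00763, and 0.523, 0.801 and 0.602 without it), and *LYZ* was higher in 3 of 3 (0.0848 and 0.802). The lineage genes *MITF* and *SOX10* were also lower in 3 of 3: *MITF* went from 48.6, 56.6 and 32.6 to 40.9, 43.8 and 24.4 CPM (adjusted p 0.00997 with the block and 0.731 without it) and *SOX10* from 299.9, 208 and 425 to 293, 178 and 375 CPM (0.167 and 0.920). Markers of other cell types with few counts went both ways with RGZ. The fibroblast marker *COL1A2* went from 1, 1 and 1 to 3, 3 and 4 counts. Endothelial *PECAM1* went from 0, 2 and 2 to 3, 12 and 4 counts. *CDH5* went from 6, 16 and 2 to 3, 7 and 1. Leukocyte *PTPRC* went from 1, 1 and 1 to 0, 0 and 0 counts. *CD14* went from 11, 8 and 5 to 7, 4 and 6. *KRT5*, *DCN* and *VWF* differed in direction between experiments.

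The 250 bases before the start site were read from RefSeq promoters (GRCh38.p14) for the 36 members that have an entry there. The NF-kB consensus was present, on either strand, in at least 1 promoter of 17 of the 36. Over all genes with a promoter entry the same was true of 1715 of 27305, and by promoter of 5.21% of 35116. It was matched in *CXCL1*, *CXCL2*, *CXCL3*, *CXCL5*, *CXCL10*, *CXCL11*, *CCL20*, *IL6*, *IL12A*, *IL32*, *LTB*, *NFKB1*, *NFKB2*, *NFKBIA*, *NFKBIZ*, *TNFAIP3* and *BIRC3*. The AP-1 motif TGANTCA was found in *IL1A*, *IL11*, *CXCL8* and *CXCL11*, and in 6.57% of all promoters. The direct repeat of AGGTCA with 1 base (N) between its copies is the consensus form of the element PPARγ binds with its partner RXR. This exact string was found in 0 of the 36 and in 0.0171% of all promoters. A string that rare would hardly appear among 36 promoters in any case. The 0 therefore does not show that members lack looser matches or sites outside the window, which were not searched. A match describes the letters only, and whether any factor was bound was not measured. The RefSeq promoters held no entry for *CXCL16*, *CCL2*, *CCL5*, *CX3CL1*, *IL18*, *IL7*, *IL15*, *CSF1*, *LIF*, *RELB* and *NFKBIE*.

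The promoters of *CXCL1* (chr4:73869143-73869392, plus strand), *CXCL2* (chr4:74099196-74099445, minus strand) and *CXCL3* (chr4:74038690-74038939, minus strand) are printed because these neighbouring genes are so alike, while *CXCL2* and *CXCL3* rose with RGZ and *CXCL1* did not pass the test. Those of *CSF2* (chr5:132073539-132073788, plus strand) and *IL1B* (chr2:112836780-112837029, minus strand) are printed beside them because these genes had 2 of the 3 largest differences with RGZ. Capitals mark matches to the NF-kB consensus, which overlap by all but 1 base in each chemokine promoter and end 70 and 69 bases upstream in *CXCL1*, 69 and 68 in *CXCL2*, and 70 and 69 in *CXCL3*. None of the motifs searched was found in the *CSF2* or *IL1B* window.
CXCL1: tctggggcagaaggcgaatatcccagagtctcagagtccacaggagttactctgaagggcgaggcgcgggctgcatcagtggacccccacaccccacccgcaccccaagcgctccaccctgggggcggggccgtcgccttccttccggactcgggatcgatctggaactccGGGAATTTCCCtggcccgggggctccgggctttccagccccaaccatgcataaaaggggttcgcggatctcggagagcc
CXCL2: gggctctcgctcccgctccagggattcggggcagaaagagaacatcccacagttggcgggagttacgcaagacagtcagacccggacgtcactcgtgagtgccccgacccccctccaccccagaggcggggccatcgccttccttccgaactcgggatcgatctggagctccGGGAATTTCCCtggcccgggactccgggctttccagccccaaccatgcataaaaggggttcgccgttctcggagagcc
CXCL3: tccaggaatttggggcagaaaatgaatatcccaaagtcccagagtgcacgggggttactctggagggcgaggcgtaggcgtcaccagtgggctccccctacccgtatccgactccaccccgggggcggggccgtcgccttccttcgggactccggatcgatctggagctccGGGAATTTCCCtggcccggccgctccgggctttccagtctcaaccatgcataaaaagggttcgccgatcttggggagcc
CSF2: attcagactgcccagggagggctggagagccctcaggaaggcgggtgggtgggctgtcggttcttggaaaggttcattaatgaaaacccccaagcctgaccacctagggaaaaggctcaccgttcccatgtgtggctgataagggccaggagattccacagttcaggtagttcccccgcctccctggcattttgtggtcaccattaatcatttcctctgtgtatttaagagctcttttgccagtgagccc
IL1B: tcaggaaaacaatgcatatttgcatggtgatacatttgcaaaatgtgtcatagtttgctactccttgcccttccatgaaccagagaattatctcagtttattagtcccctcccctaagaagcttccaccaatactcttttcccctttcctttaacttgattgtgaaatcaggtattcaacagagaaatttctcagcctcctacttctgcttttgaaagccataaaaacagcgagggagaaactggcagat

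In vehicle-treated cells the members spanned a wide range of levels, here as mean CPM per kilobase of the longest transcript so that genes can be compared. The highest were *CXCL1*, a chemokine that attracts neutrophils, at 35.5 CPM per kb and *RELA*, the main activating subunit of NF-kB, at 33.2 CPM per kb. Next came the subunit genes *NFKB1* at 20.2 and *NFKB2* at 18.9 CPM per kb, while *RELB* was lower at 4.43 CPM per kb. Among cytokines, *IL11* at 17.1 and *LIF* at 15.98 CPM per kb, both ligands that signal through the shared receptor gp130, were above *IL24* at 13.1 and *IL18* at 7.73 CPM per kb. The inhibitor gene *NFKBIA* was at 14.2 CPM per kb, close to *TNFAIP2* at 14.1 and the adhesion gene *ICAM1* at 11.6 CPM per kb. The genes that differed most with RGZ began low: *IL1B* at 2.23, *IL1A* at 1.12, *CXCL3* at 0.903, *CXCL2* at 0.897 and *CSF2* at 0.496 CPM per kb.

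**Figure D1:**
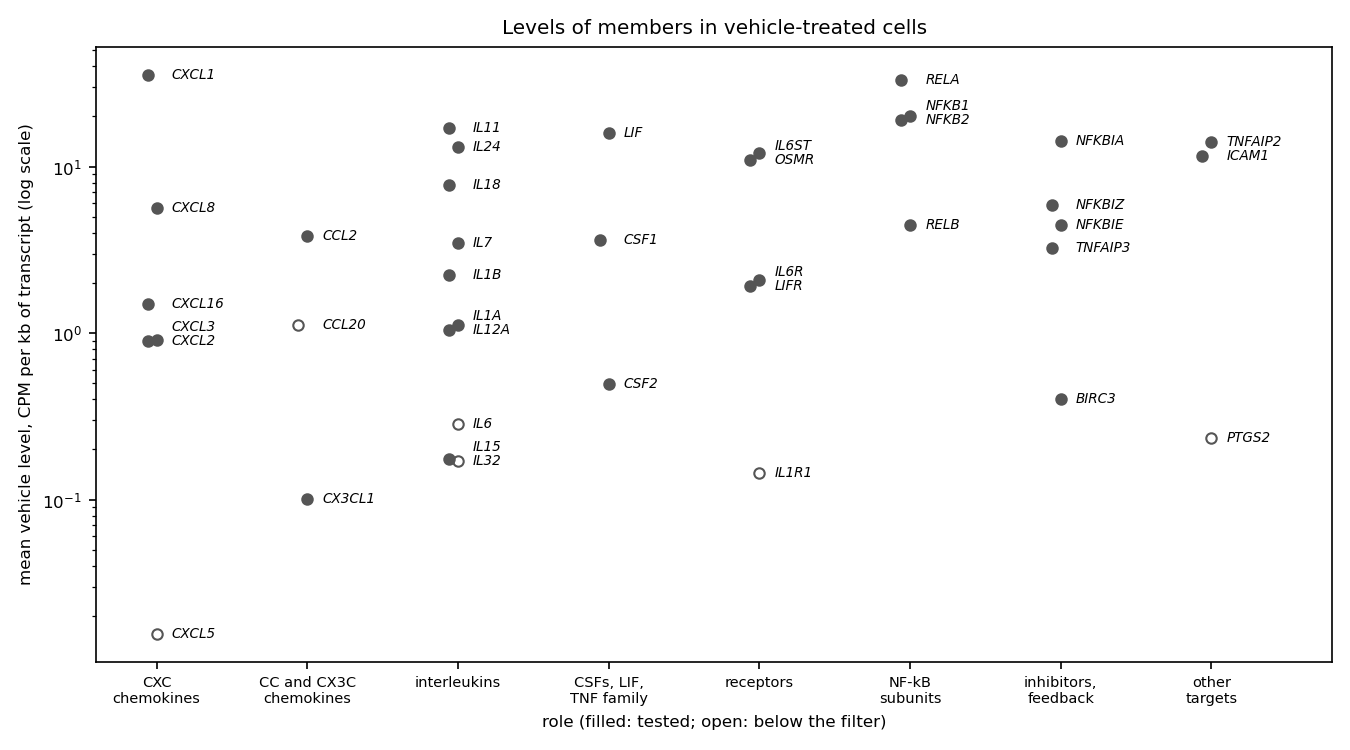
Mean level of each member in the 3 vehicle libraries (vertical axis, CPM per kb of transcript, log scale), grouped by role; filled points passed the filter on low counts and open points did not. Members at 0 or without a transcript length are not drawn, and levels run from *CXCL5* near the floor to *CXCL1* at 35.5.

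The 14 members below the filter had few or no counts. *CXCL10* (NCBI gene 3627) and *CXCL11* (NCBI gene 6373), interferon-induced ligands of CXCR3, *CXCL12* (NCBI gene 6387), the ligand of CXCR4, the alarmin *IL33* (NCBI gene 90865) and the death ligand *TNFSF10* (NCBI gene 8743) had 0 counts in all 12 libraries, which allows up to 0.258 to 0.371 CPM depending on the library. *TNF* (NCBI gene 7124), the prototype activator of NF-kB, had 1 count in 1 T0070907 library and 0 elsewhere. The neutrophil attractant *CXCL5* (NCBI gene 6374) had at most 1 count per library and *CCL5* (NCBI gene 6352), which draws T cells, 0 to 3. The cytokine genes *IL32* (NCBI gene 9235) and *LTB* (NCBI gene 4050) had 0 to 4 and 0 to 6 counts, and *IL1R1* (NCBI gene 3554), the receptor for both forms of interleukin 1, had 2 to 14. The remaining 3 of the 14, *CCL20*, *IL6* and *PTGS2*, are given with their groups. These floors cover counting error only.

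RGZ against vehicle asked whether the agonist lowers inflammatory genes. The members that moved mostly went up: *CSF2*, which encodes the growth factor GM-CSF, the interleukin 1 genes *IL1A* and *IL1B*, and the chemokines *CXCL3* and *CXCL2* rose most. The monocyte-attracting chemokine *CCL2* and the receptor gene *LIFR* fell. The NF-kB subunits, their inhibitors and the adhesion gene *ICAM1* did not pass the test. In numbers, the quasi-likelihood F test of edgeR, adjusted by Benjamini-Hochberg over all 13522 genes (a gene is called at an adjusted p under 0.05) placed 3 of 33 members higher and 0 lower. Of all genes tested, 1.24% were called in either direction. *CSF2*, called higher in each fit of this paragraph, passed the filter only through its RGZ libraries. The counts of members called therefore rest in part on the difference tested. At an unadjusted p under 0.05 the number of members was 8, beside 1421 of all genes. DESeq2 called 4, *LIFR* lower among them, beside 302 of all genes, and limma-voom 2, beside 153. With the experiment number as a replicate block, a term that removes differences between the 3 experiments, 8 members were higher and 2 lower, beside 4.95% and 4.35% of all genes. The median log2 fold change with the block was 0.14 over the members and -0.01 over all genes. The members were chosen with earlier results of these data known, so these shares and medians are descriptive only.

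**Figure D2:**
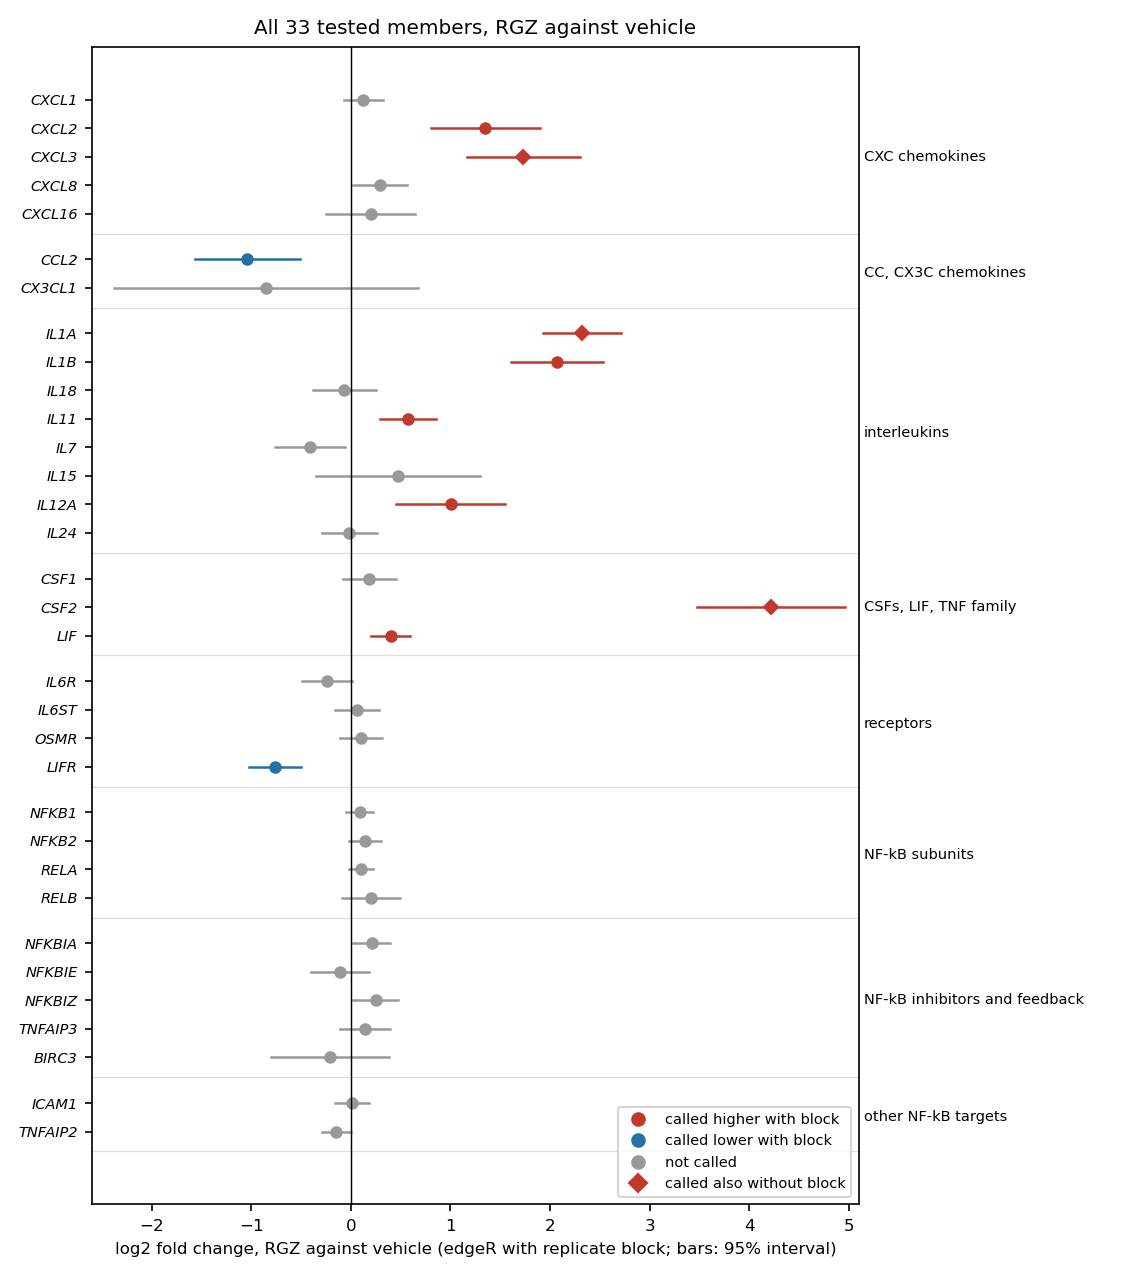
Log2 fold change of the 33 tested members with RGZ against vehicle in the fit with the replicate block (horizontal axis; bars, 95% intervals), grouped by role. Red points are higher, blue lower, grey not called, and diamonds are also called without the block; the largest value is *CSF2* at 4.22 and the lowest *CCL2* at -1.04.

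Among the CXC chemokines, 2 neutrophil attractants rose. *CXCL3* (NCBI gene 2921) was at 1.25, 1.79 and 1.41 CPM under vehicle, 2.91, 6.74 and 5.38 under RGZ, 0.924, 0.537 and 0.862 under T0070907 and 2.10, 2.10 and 1.93 under both compounds. All RGZ libraries lay above the other 9, while the T0070907 libraries lay below the vehicle libraries. With RGZ its log2 fold change was 1.73 (SE 0.270, 95% interval 1.17 to 2.30, adjusted p 0.000281) with the block and 1.75 (SE 0.320, adjusted p 0.0230) without it, with ratios of 2.33, 3.77 and 3.81 in the 3 experiments. Without the block this call was lost when any of the 3 vehicle libraries was left out (adjusted p 0.108, 0.0522 and 0.107) and without RGZ library 2 or 3 (0.0945 and 0.0846), in a range of 2.45e-07 to 0.108 over its alternatives. *CXCL2* (NCBI gene 2920) was at 0.908, 1.31 and 1.06 CPM under vehicle, 1.87, 3.31 and 3.25 under RGZ, 0.693, 1.07 and 0.862 under T0070907 and 0.741, 1.47 and 1.29 under both compounds. Its RGZ libraries, with 18, 29 and 32 counts, again lay above all others, which had 6 to 14 counts. For *CXCL2* the log2 fold change was 1.35 (SE 0.259, 95% interval 0.80 to 1.90, adjusted p 0.00197) with the block and 1.35 (SE 0.333, adjusted p 0.0878) without it, with ratios of 2.06, 2.53 and 3.07. Without experiment 3 the blocked call of *CXCL2* was lost (1.21, adjusted p 0.0944, range 0.00111 to 0.307 over its alternatives).

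The more abundant relatives *CXCL1* and *CXCL8*, which act on the same receptor as *CXCL2* and *CXCL3*, were not called with RGZ. *CXCL1* (NCBI gene 2919) was at 35.5, 44.5 and 36.7 CPM under vehicle, 41.0, 40.8 and 44.9 under RGZ, 35.5, 40.5 and 30.7 under T0070907 and 45.1, 46.4 and 42.4 under both compounds. The RGZ and vehicle libraries overlapped, and the blocked log2 fold change was 0.12 (95% interval -0.07 to 0.32, adjusted p 0.465). *CXCL8* (NCBI gene 3576) was at 8.06, 11.8 and 9.06 CPM under vehicle, 10.5, 12.2 and 12.4 under RGZ, 6.70, 10.4 and 7.07 under T0070907 and 9.39, 13.6 and 9.86 under both compounds. It was higher with RGZ in 3 of 3 experiments, but the groups overlapped and the blocked log2 fold change of 0.29 (95% interval 0.02 to 0.56) had an adjusted p of 0.187. *CXCL16* (NCBI gene 58191), a membrane-bound chemokine, was at 2.95 to 4.997 CPM in all libraries, with a blocked log2 fold change of 0.20 (95% interval -0.25 to 0.64). These genes are close paralogs, and how reads shared between them were counted is not given in the sources used here. In windows of 50 bases, 60 of 1169 in the *CXCL2* transcript also occurred in *CXCL1* and 48 in *CXCL3*, 0 of 1592 in *CXCL3* occurred in *CXCL1*, and *CXCL8* shared 0 with each of the others.

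Of the CC and CX3C chemokines, *CCL2*, which draws monocytes, fell. *CCL2* (NCBI gene 6347) was at 3.86, 4.05 and 3.53 CPM under vehicle, 1.87, 2.28 and 1.42 under RGZ, 4.85, 6.80 and 7.496 under T0070907 and 5.07, 5.36 and 4.18 under both compounds. Its 3 RGZ libraries, with 18, 20 and 14 counts, were the lowest of the 12, and the T0070907 and combination libraries were all above the vehicle libraries. RGZ gave a log2 fold change of -1.04 (SE 0.2499, 95% interval -1.57 to -0.52, adjusted p 0.0114) with the block and -1.04 (SE 0.238, adjusted p 0.0631) without it, with ratios of 0.485, 0.564 and 0.403. Without experiment 3 the blocked value was -0.93, adjusted p 0.113, in a range of 0.00157 to 0.234 over its alternatives. *CCL20* (NCBI gene 6364) was at 1.02, 0.833 and 0.941 CPM under vehicle, 0.416, 0.685 and 0.609 under RGZ, 0.462, 0.716 and 1.29 under T0070907 and 0.494, 0.631 and 0.964 under both compounds. This ligand of CCR6, with 4 to 15 counts, was below the filter and lower with RGZ in 3 of 3 experiments (ratios 0.407, 0.822 and 0.647), and its value in the blocked fit with no filter was -0.71 (adjusted p 0.539). *CX3CL1* (NCBI gene 6376), a membrane-anchored chemokine, had counts of 3, 0 and 12 under vehicle, 4, 2 and 3 under RGZ, 11, 11 and 22 under T0070907 and 5, 0 and 5 under both compounds. It passed the filter only through its vehicle and T0070907 libraries, and with RGZ its interval was wide (-0.85, 95% interval -2.38 to 0.67).

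Both interleukin 1 genes, whose products bind the same receptor and activate NF-kB, rose with RGZ. *IL1A* (NCBI gene 3552) was at 1.93, 2.62 and 2.59 CPM under vehicle, 8.21, 12.2 and 15.5 under RGZ, 0.462, 1.07 and 0.948 under T0070907 and 2.10, 5.78 and 5.14 under both compounds. Each RGZ library exceeded each of the other 9, and each T0070907 library was below each vehicle library. The log2 fold change of *IL1A* was 2.33 (SE 0.187, 95% interval 1.93 to 2.72, adjusted p 1.99e-07) with the block and 2.33 (SE 0.366, adjusted p 0.0104) without it, with ratios of 4.26, 4.67 and 5.999. Without the block, leaving out vehicle library 1 ended that call (2.20, adjusted p 0.0732, range 3.92e-17 to 0.0732 over its alternatives). *IL1B* (NCBI gene 3553) was at 0.681, 9.52 and 0.706 CPM under vehicle, 6.13, 30.7 and 6.29 under RGZ, 0, 0.985 and 0.0862 under T0070907 and 1.48, 9.15 and 2.25 under both compounds. Experiment 2 stood far above the others in every condition, so the groups overlapped, while within each experiment the RGZ library was the highest of the 4. The log2 fold change of *IL1B* was 2.07 (SE 0.220, 95% interval 1.61 to 2.53, adjusted p 5.26e-06) with the block and 1.98 (SE 1.01, adjusted p 0.531) without it. The ratios were 9.003, 3.23 and 8.91, and without experiment 2 the blocked value was 3.14, adjusted p 5.6e-07, and over its alternatives the log2 value ranged over 0.78 to 4.34 and the adjusted p over 1.01e-14 to 0.904.

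*IL11* and *IL12A* were called higher with the block and not without it. *IL11* (NCBI gene 3589) was at 31.0, 58.8 and 27.0 CPM under vehicle, 36.6, 88.1 and 48.9 under RGZ, 32.2, 46.6 and 19.4 under T0070907 and 32.9, 50.4 and 27.9 under both compounds. This gp130 cytokine was highest in experiment 2 in every condition, and the groups overlapped. Its log2 fold change with RGZ was 0.57 (SE 0.132, 95% interval 0.30 to 0.85, adjusted p 0.00855) with the block and 0.57 (SE 0.398, adjusted p 0.667) without it, with ratios of 1.18, 1.499 and 1.82. Without experiment 3 it was 0.44, adjusted p 0.224, in a range of 1.14e-05 to 0.963 over its alternatives. The log2 value of *IL11* ranged over 0.14 to 0.99 when 1 library was left out. *IL12A* (NCBI gene 3592) was at 2.04, 2.74 and 1.18 CPM under vehicle, 2.70, 6.17 and 3.25 under RGZ, 1.62, 1.88 and 1.64 under T0070907 and 2.59, 2.84 and 2.79 under both compounds. *IL12A*, a subunit of interleukin 12, had 26, 54 and 32 counts with RGZ against 18, 23 and 10 with vehicle, and the lowest RGZ library lay under the highest vehicle library. RGZ gave a log2 fold change of 1.00 (SE 0.261, 95% interval 0.45 to 1.55, adjusted p 0.0193) with the block and 1.01 (SE 0.344, adjusted p 0.269) without it, with ratios of 1.32, 2.25 and 2.76. Without experiment 2 it was 0.88, adjusted p 0.127, and without experiment 3 0.86, adjusted p 0.228, in a range of 0.00311 to 0.722 over its alternatives. The log2 value of *IL12A* ranged over 0.58 to 1.31 when 1 library was left out.

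The other interleukins were not called with RGZ. *IL24* (NCBI gene 11009) was at 20.8, 21.9 and 28.7 CPM under vehicle, 16.1, 22.2 and 33.3 under RGZ, 12.9, 23.3 and 20.9 under T0070907 and 15.7, 24.6 and 29.7 under both compounds. The groups overlapped for this member of the interleukin 10 family (blocked log2 fold change -0.02, 95% interval -0.29 to 0.26). *IL18* (NCBI gene 3606), of the interleukin 1 family, ranged over 1.72 to 32.4 CPM and differed by -0.07 (95% interval -0.38 to 0.25). *IL7* (NCBI gene 3574), a lymphocyte growth factor, was at 4.89 to 8.77 CPM and lower with RGZ in 3 of 3 experiments (-0.41, 95% interval -0.77 to -0.06, adjusted p 0.152). *IL15* (NCBI gene 3600) had 4 to 16 counts and a blocked value of 0.47 (95% interval -0.36 to 1.29). *IL6* (NCBI gene 3569), a classical NF-kB-driven cytokine, was below the filter with counts of 2, 7 and 2 under vehicle, 5, 32 and 1 under RGZ, 1, 10 and 1 under T0070907 and 0, 7 and 1 under both compounds. Most of its counts came from experiment 2 and the ratios with RGZ were 2.29, 4.39 and 0.431, so its direction differed between experiments. In the blocked edgeR fit with no filter, an alternative chosen after seeing the data, *IL6* was called higher with RGZ (1.65, adjusted p 0.0386) and lower in the combination than with RGZ (-2.24, adjusted p 0.00367).

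*CSF2*, which encodes GM-CSF, a growth factor for granulocytes and macrophages, showed the largest member difference. *CSF2* (NCBI gene 1437) was at 0.341, 0.595 and 0.235 CPM under vehicle, 6.76, 6.39 and 9.34 under RGZ, 0.462, 0.179 and 0 under T0070907 and 0.741, 0.736 and 0.857 under both compounds. The counts were 3, 5 and 2 under vehicle, 65, 56 and 92 under RGZ, 4, 2 and 0 under T0070907 and 6, 7 and 8 under both compounds. All RGZ libraries stood far above the others, and the combination libraries were slightly above every vehicle and T0070907 library. Its mean was 0.390 ± 0.185 CPM with vehicle and 7.496 ± 1.61 CPM with RGZ (SD, n = 3). RGZ changed it by 4.22 (SE 0.355, 95% interval 3.47 to 4.97, adjusted p 3.17e-07) with the block and 4.22 (SE 0.471, adjusted p 0.00120) without it on the log2 scale, with ratios of 19.8, 10.8 and 39.7. *CSF2* passed the filter only through its RGZ libraries, so its place among the tested members already rested on that difference. It was called in each of the 19 alternatives in which it was tested, with log2 fold changes of 3.78 to 4.73 and adjusted p of 1.16e-17 to 0.0148, and the filter of 10 counts in every library removed it.

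*LIF* (NCBI gene 3976) was at 53.7, 74.5 and 62.1 CPM under vehicle, 76.2, 91.2 and 82.5 under RGZ, 50.9, 60.4 and 40.2 under T0070907 and 49.7, 67.8 and 63.7 under both compounds. For this gp130 ligand, known from stem cell culture, all RGZ libraries were above the other 9. The log2 fold change of *LIF* was 0.40 (SE 0.0939, 95% interval 0.20 to 0.60, adjusted p 0.00970) with the block and 0.39 (SE 0.162, adjusted p 0.405) without it, with ratios of 1.42, 1.23 and 1.33. Without experiment 3 the call ended (0.40, adjusted p 0.0582, range 0.000207 to 0.736 over its alternatives). *CSF1* (NCBI gene 1435) was at 12.9, 19.0 and 13.5 CPM under vehicle, 16.8, 20.4 and 14.3 under RGZ, 15.3, 17.0 and 9.74 under T0070907 and 17.9, 16.6 and 12.1 under both compounds. *CSF1*, the macrophage growth factor, overlapped between the groups and was not called (blocked log2 fold change 0.18, 95% interval -0.08 to 0.45).

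**Figure D3:**
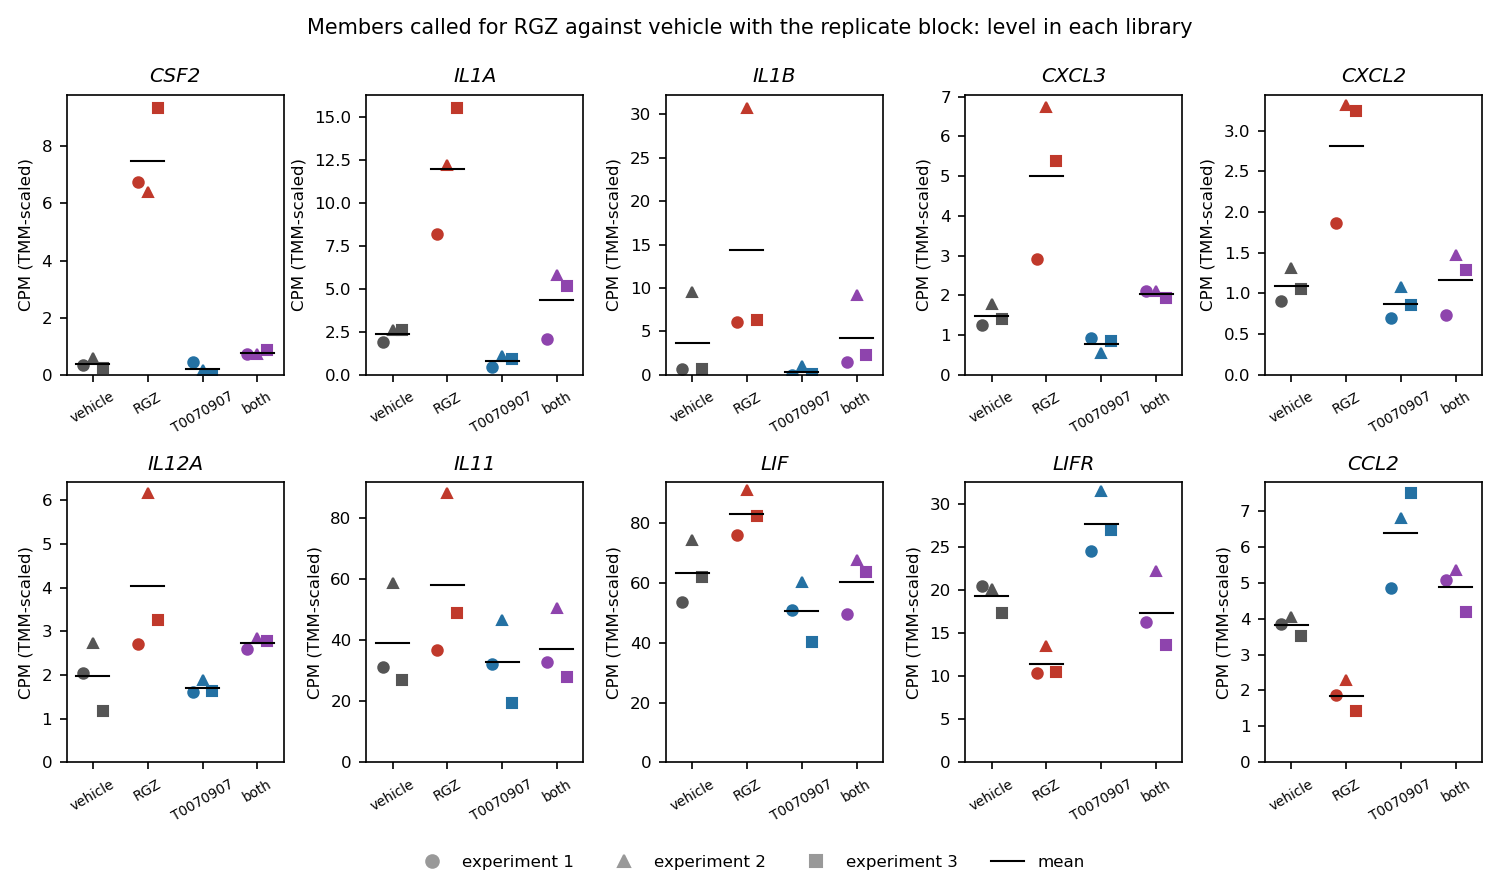
Level in each library (vertical axes, CPM after TMM scaling) of the members called with RGZ against vehicle, by condition, with marker shapes for experiments 1, 2 and 3 and a bar for the mean. Within each experiment *CSF2*, *IL1A*, *IL1B*, *CXCL2*, *CXCL3*, *IL11*, *IL12A* and *LIF* are highest with RGZ, and *CCL2* and *LIFR* lowest.

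Among the receptors only *LIFR*, which pairs with gp130 to bind LIF, was called with RGZ. *LIFR* (NCBI gene 3977) was at 20.6, 20.1 and 17.4 CPM under vehicle, 10.4, 13.5 and 10.5 under RGZ, 24.6, 31.5 and 27.1 under T0070907 and 16.3, 22.2 and 13.6 under both compounds. The RGZ libraries were the lowest 3 of the 12 and the T0070907 libraries the highest 3. RGZ changed *LIFR* by -0.76 (SE 0.123, 95% interval -1.02 to -0.51, adjusted p 0.000389) with the block and -0.76 (SE 0.181, adjusted p 0.0754) without it on the log2 scale, with ratios of 0.506, 0.670 and 0.6003. DESeq2 without the block also called it. *LIFR* fell with RGZ while its ligand gene *LIF* rose. *IL6ST* (NCBI gene 3572) was at 118, 105 and 105 CPM under vehicle, 118, 108 and 115 under RGZ, 98.1, 109.7 and 87.6 under T0070907 and 72.0, 109 and 89.3 under both compounds. *IL6ST* encodes gp130 itself, and its blocked value with RGZ was 0.06 (95% interval -0.16 to 0.28). *OSMR* (NCBI gene 9180) was at 57.0, 80.6 and 44.6 CPM under vehicle, 54.9, 87.1 and 53.1 under RGZ, 56.6, 93.2 and 43.6 under T0070907 and 40.4, 89.2 and 38.4 under both compounds. *OSMR*, a partner of gp130 for oncostatin M, was highest in experiment 2 in every condition and had a blocked value of 0.10 (95% interval -0.11 to 0.31). *IL6R* (NCBI gene 3570), the receptor for interleukin 6, was at 9.15 to 14.5 CPM, with a blocked value of -0.24 (95% interval -0.49 to 0.01, adjusted p 0.248).

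The transcripts of the NF-kB subunits were not called in any comparison in either edgeR fit. *RELA* (NCBI gene 5970) was at 105, 108 and 104 CPM under vehicle, 119.7, 113 and 108 under RGZ, 115, 113 and 113 under T0070907 and 116, 105 and 112 under both compounds. *NFKB1* (NCBI gene 4790) was at 82.6, 71.5 and 93.7 CPM under vehicle, 90.9, 79.0 and 92.4 under RGZ, 85.3, 72.2 and 97.5 under T0070907 and 76.6, 71.3 and 95.9 under both compounds. The T0070907 libraries of *RELA* all lay above its vehicle libraries (blocked log2 fold change 0.11, adjusted p 0.610), its other pairs of conditions overlapped, and *NFKB1* overlapped between all conditions. The intervals of the blocked log2 fold change with RGZ were -0.02 to 0.23 around 0.10 for *RELA* and -0.05 to 0.22 around 0.09 for *NFKB1*. *NFKB2* (NCBI gene 4791), the precursor used in the noncanonical branch, was at 52.1 to 78.8 CPM (blocked value 0.14, 95% interval -0.02 to 0.30). Its partner *RELB* (NCBI gene 5971) was at 7.97 to 13.3 CPM (blocked value 0.20, 95% interval -0.09 to 0.49). Transcript levels do not show where the proteins were or whether they were active, which was not measured.

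The inhibitors, which NF-kB itself induces, were not called with RGZ. *NFKBIA* (NCBI gene 4792) was at 21.4, 24.5 and 20.7 CPM under vehicle, 24.1, 29.7 and 23.2 under RGZ, 21.1, 21.9 and 21.9 under T0070907 and 24.3, 25.0 and 22.6 under both compounds. *NFKBIA*, the classical inhibitor, was higher with RGZ in 3 of 3 experiments, with overlapping groups (blocked log2 fold change 0.21, 95% interval 0.02 to 0.40, adjusted p 0.181). *NFKBIZ* (NCBI gene 64332) was at 23.3, 22.5 and 23.1 CPM under vehicle, 26.2, 28.5 and 27.2 under RGZ, 19.5, 23.6 and 19.99 under T0070907 and 14.8, 24.1 and 20.6 under both compounds. For this nuclear cofactor each RGZ library lay above the other 9, and the blocked value was 0.25 (95% interval 0.02 to 0.48, adjusted p 0.182). *NFKBIE* (NCBI gene 4794), a further inhibitor, was at 10.2 to 14.5 CPM (blocked value -0.11, 95% interval -0.40 to 0.18). *TNFAIP3* (NCBI gene 7128), the ubiquitin-editing enzyme that ends the signal, was at 5.04 to 30.5 CPM (blocked value 0.14, 95% interval -0.11 to 0.39). *BIRC3* (NCBI gene 330), a ubiquitin ligase, had 12 to 30 counts (blocked value -0.21, 95% interval -0.80 to 0.38).

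Of the remaining NF-kB targets, *TNFAIP2* and *ICAM1* were tested and not called with RGZ in either edgeR fit. *TNFAIP2* (NCBI gene 7127) was at 59.7, 95.1 and 43.2 CPM under vehicle, 54.3, 88.3 and 37.5 under RGZ, 69.1, 108 and 44.5 under T0070907 and 58.9, 103 and 39.1 under both compounds. *TNFAIP2*, a gene induced by TNF, was lower with RGZ in 3 of 3 experiments, with a blocked value of -0.15 (adjusted p 0.217). *ICAM1* (NCBI gene 3383) was at 33.6, 39.2 and 40.4 CPM under vehicle, 32.1, 43.7 and 38.5 under RGZ, 35.6, 40.2 and 37.6 under T0070907 and 32.4, 39.5 and 41.0 under both compounds. *ICAM1*, which leukocytes bind, overlapped between all conditions and had a blocked value of 0.01 (95% interval -0.16 to 0.18). *PTGS2* (NCBI gene 5743), the inducible cyclooxygenase, was below the filter with counts of 8, 10 and 9 under vehicle, 3, 7 and 7 under RGZ, 8, 4 and 7 under T0070907 and 2, 1 and 6 under both compounds. The ratios with RGZ were 0.343, 0.672 and 0.671, and in the blocked fit with no filter its value was -0.79 (adjusted p 0.477).

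T0070907 against vehicle asked what blocking the receptor alone does. *IL1A* and *IL1B* fell and *LIFR* rose with the block, and *CCL2* was higher in 3 of 3 experiments without passing the test. Without the block edgeR called 0 of 33 members, beside 0.0074% of all genes, with 5 at an unadjusted p under 0.05, beside 419 of all genes. DESeq2 (no adjusted p for 3) and limma-voom called 0 members, beside 21 and 0 of all genes. With the block 1 member was higher and 2 lower, beside 0.237% and 0.673% of all genes, and the median log2 fold change was -0.13 over the members and 0.00 over all genes. The values of *IL1B* rested on 0, 11 and 1 counts with T0070907 against 6, 80 and 6 with vehicle, and T0070907 was lower in 3 of 3 experiments. Its log2 fold change was -3.23 (SE 0.435, adjusted p 0.000755). Leaving out 1 library without the block moved this value over -5.85 to -0.85. *IL1A* differed by -1.51 (SE 0.314, adjusted p 0.0269), with ratios of 0.239, 0.410 and 0.366. *LIFR* differed by 0.52 (SE 0.106, adjusted p 0.0236), with ratios of 1.197, 1.57 and 1.55.

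None of these 3 calls held in every fit that left out an experiment. *IL1A* was at -1.36, adjusted p 0.0895 without experiment 1 and -1.54, adjusted p 0.533 without experiment 3 (range 0.00142 to 1 over its alternatives). *IL1B* was at -3.51, adjusted p 0.104 without experiment 2 (range 1.14e-09 to 1), and *LIFR* at 0.45, adjusted p 0.0934 without experiment 2 and 0.46, adjusted p 0.616 without experiment 3 (range 0.000859 to 1). Members that did not pass included *CCL2* at 0.76 (adjusted p 0.0749, ratios 1.26, 1.68 and 2.12), *LIF* at -0.33 (adjusted p 0.154) and *CXCL3* at -0.97 (adjusted p 0.399, ratios 0.740, 0.301 and 0.610). In the blocked fit with no filter, chosen after seeing the data, *CCL2* was called higher and *LIF* lower. The blocked fit without experiment 1 also called *LIF* lower. T0070907 and RGZ are compared with the same vehicle libraries, so a low or high vehicle value enters both. Side by side with RGZ first, the blocked log2 fold changes were 2.33 and -1.51 for *IL1A*, 2.07 and -3.23 for *IL1B*, -1.04 and 0.76 for *CCL2*, and -0.76 and 0.52 for *LIFR*. For *CSF2*, at 4, 2 and 0 counts with T0070907, a decrease was hardly detectable at this depth.

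RGZ plus T0070907 against RGZ asked whether members moved when the antagonist was added to the agonist. A shift here also holds what T0070907 does alone, so by itself it does not show a reversal. For the members called with T0070907 against vehicle, the blocked values here and there were alike for *IL1A* (-1.46 and -1.51) and *LIFR* (0.60 and 0.52). For *IL1B* they were -1.77 and -3.23. In the combination *CSF2*, *IL1A*, *IL1B*, *CXCL2*, *CXCL3*, *IL11* and *LIF* fell, and *CCL2* and *LIFR* rose. *IL6ST* and *NFKBIZ*, not called with RGZ, also fell. Without the block edgeR called *CCL2* higher and *CSF2* lower, 2 of 33 members beside 1.24% of all genes, with 9 members at an unadjusted p under 0.05, beside 1773 of all genes. DESeq2 called these 2 and *IL1A* lower, beside 318 of all genes, and limma-voom the same 2 as edgeR, beside 166. With the block 2 members were higher and 9 lower, beside 5.55% and 5.88% of all genes, and the median log2 fold change was -0.14 over the members and 0.01 over all genes. The RGZ libraries enter this comparison and the one with vehicle, so an extreme RGZ value moves both in opposite directions.

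*CSF2* fell from 7.496 ± 1.61 to 0.778 ± 0.0685 CPM (mean ± SD, n = 3), with ratios of 0.110, 0.115 and 0.0918. Its log2 fold change was -3.25 (SE 0.302, 95% interval -3.88 to -2.61, adjusted p 1.34e-06) with the block and -3.25 (SE 0.422, adjusted p 0.00445) without it. Since it passed the filter only through its RGZ libraries, its place in this test, and among the calls above, rested in part on the same difference. *IL1A* fell from 11.99 ± 3.66 to 4.34 ± 1.97 CPM, with ratios of 0.256, 0.474 and 0.331 and a blocked log2 fold change of -1.46 (SE 0.162, adjusted p 9.21e-06). *IL1B* fell in 3 of 3 experiments, with ratios of 0.242, 0.298 and 0.358 and a blocked value of -1.77 (SE 0.210, adjusted p 1.87e-05). Leaving out 1 library without the block moved the value of *IL1B* over -2.92 to -0.52, with an adjusted p of up to 0.850. *CXCL2* differed by -1.26 (SE 0.251, adjusted p 0.00269, lower in 3 of 3) and *CXCL3* by -1.29 (SE 0.248, adjusted p 0.00205, lower in 3 of 3). *CCL2* rose in 3 of 3 experiments, with ratios of 2.71, 2.35 and 2.94, and its log2 fold change was 1.39 (SE 0.235, 95% interval 0.89 to 1.88, adjusted p 0.000655) with the block and 1.39 (SE 0.234, adjusted p 0.0145) without it. Without the block the call of *CCL2* was lost without RGZ library 1 or 3 and without combination library 1 or 2, with log2 values of 1.23 to 1.56 and an adjusted p of up to 0.0714 (range 3.43e-06 to 0.0833 over its alternatives).

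*LIF* differed by -0.47 with the block (SE 0.0939, adjusted p 0.00284), with ratios of 0.652, 0.744 and 0.771. Its receptor gene *LIFR* differed by 0.60 (SE 0.125, adjusted p 0.00377), with ratios of 1.57, 1.65 and 1.30. *IL11* differed by -0.62 (SE 0.133, adjusted p 0.00433), with ratios of 0.898, 0.572 and 0.570. *IL6ST* differed by -0.34 (SE 0.105, adjusted p 0.0450), lower in 2 of 3 experiments, and *NFKBIZ* by -0.46 (SE 0.110, adjusted p 0.0101), lower in 3 of 3. Both rested partly on combination library 1, the lowest of the 12 for each: without experiment 1 *IL6ST* was at -0.18, adjusted p 0.314 and *NFKBIZ* at -0.32, adjusted p 0.0938. Without experiment 3 the calls of 5 members ended, with *CXCL2* at -1.21, adjusted p 0.0789, *CXCL3* at -1.18, adjusted p 0.103, *IL11* at -0.52, adjusted p 0.107, *IL6ST* at -0.33, adjusted p 0.332 and *NFKBIZ* at -0.50, adjusted p 0.136. Over all alternatives the adjusted p ranged over 0.00180 to 0.367 for *CXCL2*, 3.03e-05 to 0.235 for *CXCL3*, 2.04e-06 to 0.845 for *IL11*, 0.000241 to 0.646 for *IL6ST* and 0.000916 to 0.465 for *NFKBIZ*. It ranged over 2.116e-11 to 0.2515 for *IL1A*, 9.83e-13 to 0.850 for *IL1B*, 1.331e-05 to 0.5825 for *LIF* and 0.0002165 to 0.4681 for *LIFR*. The log2 value of *IL11* ranged over -0.93 to -0.21. *IL12A*, higher with RGZ, was at -0.54 here and not called (adjusted p 0.165).

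**Figure D4:**
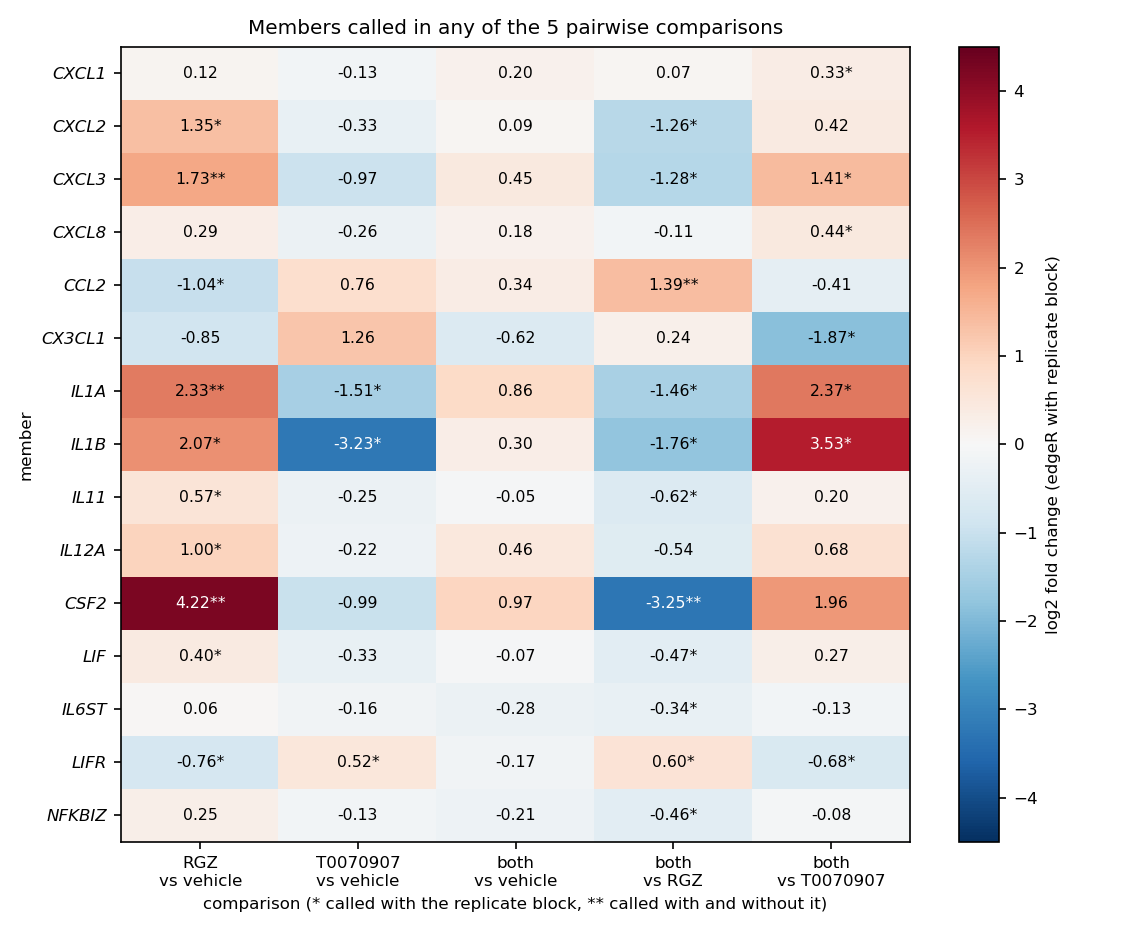
Log2 fold change (colour and number, fit with the replicate block) of each member called in any of the 5 pairwise comparisons (vertical axis), by comparison (horizontal axis); 1 star marks a call with the block and 2 stars calls with and without it. *CSF2* runs from 4.22 with RGZ to -3.25 when the antagonist is added to RGZ.

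RGZ plus T0070907 against vehicle asked whether cells given both compounds differed from vehicle-treated cells. This comparison joins the effects of both compounds, so it cannot show whether the RGZ effect remained. With the block *IL1A*, for example, differed by -1.51 with T0070907 against vehicle and by 2.37 in the combination against T0070907. No member was called: edgeR gave 0 of 33 without the block and 0 of 33 with it, beside 0% of all genes in each fit. The members at an unadjusted p under 0.05 were 1 without and 3 with the block, beside 1438 and 2868 of all genes. DESeq2 and limma-voom each called 0 members with and without the block, though DESeq2 with the block called 227 of all genes and gave no adjusted p to 26 of the 33. *IL1A* had the largest blocked difference among those 3 at 0.86 (SE 0.227, 95% interval 0.38 to 1.34, adjusted p 0.101), with ratios of 1.09, 2.21 and 1.99. *CSF2* was at 0.97 (95% interval -0.27 to 2.22, adjusted p 0.348), from 6, 7 and 8 counts against 3, 5 and 2. *CCL2* was at 0.34 and *LIFR* at -0.17, against -1.04 and -0.76 with RGZ alone. The median over the members was 0.02 and over all genes 0.00. Without experiment 2 the blocked fit called 4 members, *IL1B* higher and *IL6ST*, *OSMR* and *NFKBIZ* lower, beside 2641 of all genes, and with the block and no filter it called 2, beside 843 of all genes.

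RGZ plus T0070907 against T0070907 asked what RGZ does in cells that also receive the antagonist. Interleukin 1 genes were again higher: *IL1A* rose in 3 of 3 experiments, with ratios of 4.55, 5.39 and 5.43, and *IL1B* rose from 0, 11 and 1 to 12, 87 and 21 counts. The chemokines *CXCL1*, *CXCL3* and *CXCL8* rose, and *CX3CL1* and *LIFR* fell. Without the block edgeR called 0 of 33 members, beside 0.037% of all genes, with 7 at an unadjusted p under 0.05, beside 2028 of all genes. DESeq2 and limma-voom called 0 members, beside 83 and 5 of all genes. With the block 5 members were higher and 2 lower, beside 4.55% and 4.22% of all genes, with DESeq2 calling 2 (880 of all genes) and limma-voom 7 (1009 of all genes). The 7 of limma-voom included *CSF2* and left out *CXCL8* (adjusted p 0.0604). DESeq2 gave no adjusted p to 26 of the 33 members without the block and to 11 with it, *IL1A*, *IL1B*, *CXCL3* and *CX3CL1* among both, so its counts do not bear on those genes. The median was 0.09 over the members and -0.01 over all genes. *IL1A* differed by 2.37 (SE 0.270, adjusted p 8.07e-05) and *IL1B* by 3.53 (SE 0.413, adjusted p 9.16e-05). *CSF2*, at 1.96, was not called in the blocked edgeR fit with the filter (adjusted p 0.0664). The blocked edgeR fit with no filter, chosen after seeing the data, did call it higher. Among chemokines *CXCL3* differed by 1.41 (SE 0.362, adjusted p 0.0265, ratios 2.27, 3.92 and 2.24) and *CXCL8* by 0.44 (SE 0.130, adjusted p 0.0434, ratios 1.40, 1.31 and 1.40).

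*CXCL1* was above every T0070907 library in every combination library and differed by 0.33 (SE 0.0907, adjusted p 0.0336, ratios 1.27, 1.15 and 1.38). *CX3CL1* had 11, 11 and 22 counts with T0070907 and 5, 0 and 5 with the combination, with no overlap in CPM, and differed by -1.87 (SE 0.561, adjusted p 0.0462). It passed the filter only through its vehicle and T0070907 libraries, so its place in this test rested in part on that difference. *LIFR* was lower in 3 of 3 experiments and differed by -0.68 (SE 0.107, adjusted p 0.00122). *IL1B* kept its call without each experiment, at 4.93, adjusted p 0.000165 without experiment 2 (range 3.25e-12 to 0.658 over its alternatives), and the other calls each ended without at least 1. Leaving out 1 library without the block moved the value of *IL1B* over 2.275 to 6.119. *CXCL1* was at 0.27, adjusted p 0.255 without experiment 3, *CXCL8* at 0.42, adjusted p 0.242, *CXCL3* at 1.57, adjusted p 0.208, *IL1A* at 2.32, adjusted p 0.0502 and *LIFR* at -0.54, adjusted p 0.195. Without experiment 1 *CXCL1* was at 0.33, adjusted p 0.130, *CXCL3* at 1.501, adjusted p 0.0529, *CXCL8* at 0.43, adjusted p 0.198 and *CX3CL1* at -2.39, adjusted p 0.0746. Without experiment 2 *CXCL3* was at 1.18, adjusted p 0.0578 and *CX3CL1* at -1.46, adjusted p 0.0569. The adjusted p over all alternatives ranged over 0.00799 to 0.658 for *CXCL1*, 0.00365 to 0.628 for *CXCL3*, 0.0234 to 0.701 for *CXCL8*, 0.0146 to 0.658 for *CX3CL1*, 2.95e-10 to 0.609 for *IL1A* and 2.19e-06 to 0.649 for *LIFR*.

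The interaction tested whether the RGZ effect differed with and without the antagonist. edgeR called 0 of 33 members without the block and 0 of 33 with it, beside 0% and 0.281% of all genes, and DESeq2 (no adjusted p for 9 with the block) and limma-voom each called 0 with and without the block, beside 52 and 21 of all genes with it. The members at an unadjusted p under 0.05 were 1 without and 4 with the block, beside 406 and 1324 of all genes. With the block these 4 were *IL1B* (1.46, SE 0.530, adjusted p 0.383), *CSF2* (-2.26, SE 0.989, adjusted p 0.478), *OSMR* (-0.32, adjusted p 0.475) and *NFKBIZ* (-0.33, adjusted p 0.507), named after their values were seen. For *IL1A* the RGZ effect was 2.33 alone and 2.37 with the antagonist, and the interaction was 0.04 (95% interval -0.58 to 0.67, adjusted p 0.981). For *CSF2* the same effects were 4.22 and 1.96, and for *CXCL2* 1.35 and 0.42 (interaction -0.93, adjusted p 0.523). For *LIFR* they were -0.76 and -0.68 (interaction 0.08, adjusted p 0.910), and for *CCL2* -1.04 and -0.41 (interaction 0.63, adjusted p 0.524). The median was -0.05 over the members and 0.01 over all genes. A different RGZ effect with the antagonist was not shown for any member.

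In *IL18*, *TNFAIP3* and *TNFAIP2* the 3 experiments lay further apart than the treatments. An F test of the experiment term in the blocked edgeR fit, added after seeing the data, was past the threshold for 15 of 33 members, beside 30.5% of all genes. Among members past the threshold, the largest ranges between experiments were 3.65 on the log2 scale for *IL18* (adjusted p 5.45e-13), 2.64 for *IL1B* (1.19e-08), 2.07 for *TNFAIP3* (6.55e-11) and 1.27 for *TNFAIP2* (4.05e-11), a choice made with the values in view. *IL18* was at 4.66, 32.0 and 2.71 CPM under vehicle, 3.74, 32.2 and 2.44 under RGZ, 4.62, 26.7 and 2.76 under T0070907 and 5.93, 32.4 and 1.72 under both compounds. *TNFAIP3* was at 10.7, 27.3 and 8.002 CPM under vehicle, 13.1, 30.5 and 7.31 under RGZ, 8.90, 26.8 and 6.29 under T0070907 and 8.89, 26.5 and 5.04 under both compounds. Both were high in experiment 2 under each of the 4 conditions. *OSMR* and *IL11* were also highest there, while *IL24* was highest in experiment 3 under 3 of the 4 conditions. Every condition was present in every experiment, so the block separates these differences from the treatments. Fewer cells expressing a gene and less RNA per cell cannot be told apart in bulk RNA.

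**Figure D5:**
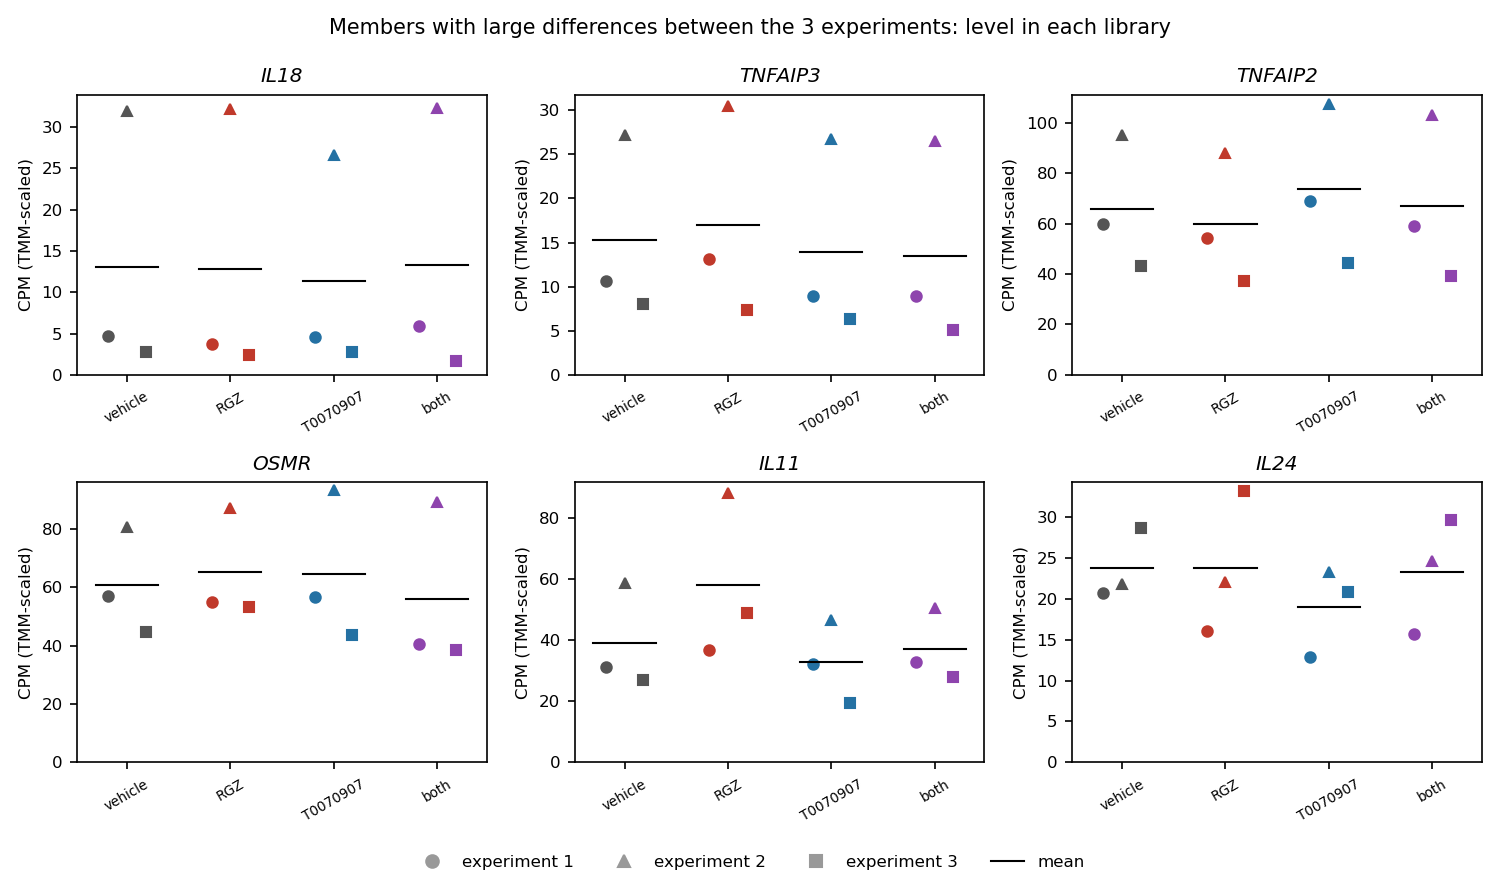
Level in each library (vertical axes, CPM after TMM scaling, from 0) of 6 members that differed between the experiments, by condition, with marker shapes for the experiments and a bar for the mean. *IL18* and *TNFAIP3* are highest in experiment 2 under every condition.

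Other genes of the pathway, from lists of related genes, were read in the same fits for RGZ against vehicle. The lists, too, were chosen with earlier results of these data known. Of 41 genes of the NF-kB pathway, from receptors, adaptors and kinases to further subunits and inhibitors, 40 were tested: 4 were higher and 2 lower with the block, and 1 was higher and 1 lower without it. For this list and those that follow, the shares of all genes in the same fits were 4.95% higher and 4.35% lower with the block and 1.24% in either direction without it, where 1421 of 13522 genes were at an unadjusted p under 0.05. The TNF receptor gene *TNFRSF1B* was at 4.996, 7.14 and 6.94 CPM with vehicle and 14.8, 21.7 and 16.1 with RGZ, a log2 fold change of 1.46 (SE 0.147, adjusted p 2.87e-06, and 0.00901 without the block). Its combination libraries were at 4.45, 5.995 and 7.72 CPM. *IRAK2*, a kinase-like adaptor of the interleukin 1 receptor, differed by 1.23 (adjusted p 6.28e-05, higher in 3 of 3), and *TLR4*, the receptor for bacterial lipopolysaccharide, by 0.80 (adjusted p 7.75e-05, higher in 3 of 3). *TNFRSF1A*, the main TNF receptor, differed by 0.65 (adjusted p 1.43e-06, higher in 3 of 3). Of the 2 lower genes, named after their values were seen, *MALT1*, which passes on signals to NF-kB, was at 69.2, 67.1 and 57.1 CPM with vehicle and 47.2, 44.6 and 41.8 with RGZ, with no overlap (log2 fold change -0.53, adjusted p 2.9e-05, and 0.0317 without the block). The adaptor gene *TRAF1* differed by -0.56 (adjusted p 0.0109, lower in 3 of 3, and 0.724 without the block). The median of this list was 0.01.

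Of 17 further NF-kB targets tested, 5 were higher and 2 lower with the block, and 3 higher and 0 lower without it. *IRF1*, a transcription factor of the interferon response, was at 19.5 ± 1.65 CPM with vehicle and 37.5 ± 5.40 with RGZ (mean ± SD, n = 3), a blocked log2 fold change of 0.94 (adjusted p 1.43e-06). The growth regulator *MYC* differed by 0.81 (adjusted p 2.73e-05), the complement gene *C3* by 0.71 (adjusted p 0.000860) and the urokinase receptor gene *PLAUR* by 0.64 (adjusted p 0.000110), each higher in 3 of 3. The 2 lower genes were *TRAF1*, given above, and the cyclin gene *CCND1* at -0.22 (adjusted p 0.0111, lower in 3 of 3, and 0.574 without the block), named after its value was seen. Of 25 JAK-STAT genes, 2 were higher and 1 lower with the block, and edgeR called 0 without it (2 at an unadjusted p under 0.05). *STAT3*, through which gp130 signals, differed by -0.31 (adjusted p 0.00463), and the receptor gene *IL4R* by 0.47 (adjusted p 0.00251). The medians of these lists were 0.09 and -0.07.

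Of 22 interferon-stimulated genes tested, 2 were higher and 1 lower with the block, and 1 was higher without it. *OASL*, an antiviral gene, had 4, 22 and 3 counts with vehicle and 21, 113 and 11 with RGZ, a log2 fold change of 2.21 (adjusted p 9.83e-06). *OAS1*, its relative, was at 5.68, 6.31 and 8.94 CPM with vehicle, 19.2, 28.0 and 24.4 with RGZ and 8.89, 6.63 and 10.3 with the combination (log2 fold change with RGZ 1.77, adjusted p 6.86e-07), while *IFIT1*, also antiviral, differed by -1.01 (adjusted p 0.000781). Of 17 receptors for the chemokines and cytokines above, 4 passed the filter, and 2 were higher and 0 lower with the block, while edgeR called 0 without it (1 at an unadjusted p under 0.05). *IL1RL1*, the receptor for interleukin 33, was at 24.3, 97.3 and 7.77 CPM under vehicle, 96.4, 423 and 44.3 under RGZ, 11.8, 26.4 and 2.07 under T0070907 and 19.0, 86.7 and 11.1 under both compounds. Its 3 experiments lay far apart, and within each the RGZ library was the highest (log2 fold change with the block 2.13, adjusted p 1.11e-08), whereas its ligand gene *IL33* had 0 counts. *IL15RA*, a receptor for interleukin 15, differed by 1.05 (adjusted p 0.0113). *CXCR2*, the receptor for the chemokines that rose, and *CSF2RA* and *CSF2RB*, the receptor genes for GM-CSF, were below the filter. The medians of these lists were 0.03 and 0.60.

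In the same libraries established PPARγ targets rose with RGZ in both fits, with blocked log2 fold changes of 6.32 for *ANGPTL4*, 2.73 for *PDK4*, 2.62 for *PLIN2* and 0.78 for *CPT1A*. *FABP4* had 1, 1 and 1 counts with vehicle and 1895, 3513 and 1648 with RGZ, and it passed the filter only through its RGZ libraries, so no fold is given for it.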

How the data were processed

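The deposited file holds raw counts per gene made by the authors, in a table with 12 libraries and 0 columns of other samples; their notes name genome build hg19, and the strand and counting tool are not given in the sources used here. Entrez numbers were matched to symbols for 23538 of 23705 genes. R 4.3.3 with edgeR 4.0.16 (TMM scaling, filterByExpr with a minimum count of 10, quasi-likelihood F test, Benjamini-Hochberg over 13522 genes, adjusted p under 0.05) was used for all 12 libraries in 4 groups, with and without the experiment number as a block. limma 3.58.1 and DESeq2 1.42.0 were alternatives. Exact tests of 3 against 3 libraries cannot go below p = 0.1, so none was run. Standard errors (log2 fold change over the root of F) and 95% intervals are approximate. Total counts of 8319455 to 11375227 make 3 counts equal to 0.258 to 0.371 CPM. Residual degrees of freedom were 8 without and 6 with the block, and the common dispersion was 0.0193 and 0.00333.

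The pairing rests on the design text, which has 3 independent experiments each with every condition, and on numbers in the titles. Deviations from the condition mean (log CPM, across genes) correlated between libraries of the same number with a mean of 0.554 (0.0793 to 0.758), lowest for the combination library of experiment 1. The first principal component, 40.2% of variance, was 94.3% explained by experiment, and the second, 24.1%, was 93.1% explained by condition. Named genes were those called in any comparison with or without the block and the 2 members of highest mean CPM in each role group, and up to 4 called genes of each further list; others are marked as chosen after their values were seen or given by range. Members and lists were chosen with earlier results of these data known. Further lists overlap: *TRAF1*, *BCL3* and *IL7R* are each in 2 lists. Alternatives were other tools, scalings and filters, only the conditions compared, and leaving out each library or experiment. No set test was run, and members below the filter were left out of the tests except in the fits with no filter. Promoters are RefSeq GRCh38.p14, and the edgeR fits were checked on simulated data.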

Additional observations from a re-analysis of the deposited data

Results flagged for a closer look

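Among the members and related genes, 2 genes outside the members had an RGZ effect that differed with and without T0070907 by the interaction test in the edgeR fit with the replicate block. Of all 13522 genes tested, 0.281% were called by the same test. *IRF1* rose by 0.94 on the log2 scale with RGZ alone and differed by 0.28 with the antagonist present (interaction -0.66, SE 0.134, adjusted p 0.0452, and 0.9998 without the block). *PLIN2*, a PPARγ target that coats lipid droplets, was at 2.62 with RGZ alone and 1.52 with the antagonist (interaction -1.10, SE 0.177, adjusted p 0.0301, and 0.9998 without the block).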

How the results depend on the processing

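Without the block edgeR called 3 members with RGZ against vehicle and 2 in the combination against RGZ (167 of all genes in each), and 0 in each of the other 4 contrasts. The replicate block gave, for RGZ, T0070907, combination against RGZ and combination against T0070907, 10, 3, 11 and 7 members in edgeR (1258, 123, 1545 and 1185 of all genes) and the same numbers in limma-voom (1220, 109, 1466 and 1009 of all genes), the last with *CSF2* in place of *CXCL8*. Settings chosen after seeing the data gave 10, 3, 11 and 7 with the block and DESeq2 size factors (1255, 125, 1543 and 1183 of all genes), 9, 3, 10 and 2 with the block in DESeq2 (896, 114, 1071 and 880 of all genes), and 11, 5, 14 and 9 with the block and no filter (1465, 224, 1859 and 1805 of all genes), which also called 2 in the combination against vehicle (843 of all genes). In the combination against T0070907, 11 members had no adjusted p in DESeq2 with the block. Requiring 10 counts in every library, which removes *CSF2*, *IL1A* and *CXCL3* before testing, left 0 members with RGZ and 1 in the combination against RGZ (146 and 149 of all genes), and fitting only the conditions compared left 1 there (41 of all genes). Leaving out 1 library without the block, or 1 experiment with it, gave 1 to 10 members with RGZ, 0 to 3 with T0070907, 0 to 4 in the combination against vehicle, 1 to 13 against RGZ, 0 to 7 against T0070907 and 0 for the interaction. Over all genes these fits gave 45 to 1040, 0 to 127, 0 to 2641, 53 to 2226, 0 to 2206 and 0 to 23 calls, in the same order. Those fits hold fewer libraries; other causes of these shifts were not tested. None of the 10 members called with RGZ against vehicle reversed its direction in any alternative. Of the alternatives in which each was tested, *CSF2* was past the threshold in 19 of 19, *IL1A* in 18 of 19, *CXCL3* in 12 of 19, *LIFR* in 9 of 20, *IL1B* in 8 of 19, *CXCL2* in 7 of 19, *CCL2*, *IL11* and *LIF* each in 7 of 20, and *IL12A* in 5 of 20. *CSF2* passed the filter only through its RGZ libraries, so its tally rests in part on the difference tested. Members with fewer than about 10 counts in a library could show only large differences at this depth.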
